A study of Mus musculus with 16 samples.

Results

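The cytochrome P450 and conjugation enzymes were followed in the kidneys of mice that lack the peptide transporter Slc15a2 (also called Pept2). The genes were chosen by symbol from 11 enzyme families (Cyp, Fmo, Adh, Aldh, Akr, Ces, Ephx, Ugt, Sult, Gst and Mgst), leaving out the Cyp4a genes, Cyp4b1, Cyp51, Gstm1, Gsta2, Adh1, Aldh1a1, Aldh1a7, Aldh4a1 and Aldh6a1. Of 72 genes with a matching symbol, 44 had a value in both dye orientations of every mouse, and these 44 are described here among the 6191 genes that passed the same requirement. They comprise 9 P450, 1 Fmo, 1 Adh, 7 Aldh, 5 Akr, 4 Ces, 1 Ephx, 3 Ugt, 3 Sult, 9 Gst and 1 Mgst genes, read by 47 cDNA probes.

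The knockout group was 4 individual Pept2-/- males, each represented by its right kidney. The comparison RNA was 1 pool of the right kidneys of 5 Pept2+/+ mice. All animals descended from the F4 of a Pept2+/- line on a mixed C57BL/6 and 129Sv background and were males killed in the morning at 88 (± 2) days of age. Each knockout kidney was hybridised against the pool on 4 two-colour spotted cDNA arrays, 2 with the knockout RNA in channel 1 and 2 with it in channel 2. Because the wild-type side is a single pool, wild-type animals contribute no spread to a test of the mean ratio against 0, and the litters of the animals are not given in the sources used.

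Background helps in reading the gene names. Cytochrome P450 enzymes are haem proteins that insert oxygen into drugs, steroids, sterols, fatty acids and retinoids, drawing electrons through P450 reductase, cytochrome b5 or, in mitochondria, ferredoxin. Fmo, Adh, Aldh, Akr, Ces and Ephx enzymes oxidise, reduce or hydrolyse other functional groups, and the Ugt, Sult and Gst families then attach glucuronic acid, sulfate or glutathione so that the product can be excreted. In the kidney many of these enzymes sit in the proximal tubule, and in mice several of them, Cyp2d9 among them, are known to be higher in males.

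All values below are log2 ratios of knockout kidney over the wild-type pool, where 0 means no difference and a positive value means more RNA in the knockout. The deposited ratio was read as channel 1 over channel 2 because Slc15a2 is then lower in the knockout. Slc15a2 stood at -2.17, -2.74, -2.81 and -2.33 in mice 1 to 4 and was negative on all 16 arrays, from -1.45 to -3.77 (mean -2.51, SE 0.10, limma adjusted p = 2.17e-05). Having set the sign, this gene cannot also serve as a check of it. Arrays held values for 50.2% to 91.1% of the 20205 probes and for 39 to 44 of the 44 genes, and different arrays agreed only loosely. Over all probes, the median Pearson r was 0.25 between arrays that shared mouse and orientation (8 pairs), 0.17 for different mice in the same orientation (48 pairs), 0.11 for a shared mouse with opposite orientation (16 pairs), and 0.03 with neither shared (48 pairs). Sharing an orientation thus went with a higher median r than sharing a mouse. Array 3 of mouse 3 and array 1 of mouse 4 correlated at 0.62, above every pair from one mouse. Of the kidney markers looked for, 10 of 14 proximal tubule genes, 6 of 11 collecting duct genes and 2 of 9 loop and distal tubule genes were measured, and ratios carry no level from which the tissue could be checked further.

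Promoter windows of 2 sets of related genes, from the Cyp2d and Ugt2b subfamilies, are printed here to show how far they resemble each other. They come from the RefSeq table of build GRCm38.p6, each running from 250 bases before the start of the gene to 50 after it, 5′ to 3′ on the gene's strand. Cyp2d9 and Cyp2d40 are shown because they belong to one cluster on chromosome 15 whose 4 measured genes were all highest in mouse 3, though Cyp2d40 did not pass the test between mice. Cyp2d9 lies at chr15:82452127-82452426 on the plus strand and Cyp2d40 at chr15:82764073-82764372 on the minus strand. Capitals mark runs of at least 10 bases that both windows share, 114 bases in all. The longest of these runs has 19 bases, and the windows were identical over 53.4% of aligned columns. Aligned columns include gaps, here 194 identical bases in 363 columns for 2 windows of 300 bases whose shared runs stand at different places. Between the printed Cyp2d windows and the printed Ugt2b windows, of another family, the share was 43.5% to 50.2%. There the longest shared run had 12 bases. Because gaps lower these shares, they do not rank how alike the pairs are.
Cyp2d9: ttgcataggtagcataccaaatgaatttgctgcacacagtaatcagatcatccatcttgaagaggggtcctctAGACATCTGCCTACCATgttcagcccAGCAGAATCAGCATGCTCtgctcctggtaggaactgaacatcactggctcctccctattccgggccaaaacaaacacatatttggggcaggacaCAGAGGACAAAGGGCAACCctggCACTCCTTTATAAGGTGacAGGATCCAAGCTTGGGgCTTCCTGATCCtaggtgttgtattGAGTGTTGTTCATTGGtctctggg
Cyp2d40: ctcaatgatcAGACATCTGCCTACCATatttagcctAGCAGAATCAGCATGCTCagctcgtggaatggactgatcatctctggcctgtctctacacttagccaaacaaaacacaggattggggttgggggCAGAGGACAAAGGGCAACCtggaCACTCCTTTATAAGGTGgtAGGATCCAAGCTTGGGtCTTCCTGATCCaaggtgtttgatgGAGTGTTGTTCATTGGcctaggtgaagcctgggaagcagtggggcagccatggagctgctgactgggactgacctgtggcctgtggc
Cyp2d26 belongs to the same cluster (chr15:82794196-82794495, minus strand), and the longest run its window shares with either of them has 10 bases. Its capitals mark a hexamer of the tubule factor HNF1 (GTTAAT, found on the opposite strand), which begins 90 bases before the start.
Cyp2d26: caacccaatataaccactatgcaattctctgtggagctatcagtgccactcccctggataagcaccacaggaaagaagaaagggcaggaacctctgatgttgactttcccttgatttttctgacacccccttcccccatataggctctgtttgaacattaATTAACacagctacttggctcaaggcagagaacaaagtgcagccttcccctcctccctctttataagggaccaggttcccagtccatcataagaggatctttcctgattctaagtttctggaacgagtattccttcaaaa
Ugt2b36 (chr5:87092506-87092805, minus strand) and Ugt2b38 (chr5:87424154-87424453, minus strand) are the glucuronosyltransferase pair with negative ratios. Capitals again mark shared runs of at least 10 bases, 43 bases in all with a longest run of 22 bases, and the windows were identical over 63.9% of aligned columns.
Ugt2b36: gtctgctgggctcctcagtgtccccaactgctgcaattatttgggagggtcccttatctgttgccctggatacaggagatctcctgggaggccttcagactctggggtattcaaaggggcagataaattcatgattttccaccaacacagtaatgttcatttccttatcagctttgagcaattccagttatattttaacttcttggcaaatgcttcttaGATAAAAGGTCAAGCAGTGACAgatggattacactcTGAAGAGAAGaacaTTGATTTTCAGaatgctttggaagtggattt
Ugt2b38: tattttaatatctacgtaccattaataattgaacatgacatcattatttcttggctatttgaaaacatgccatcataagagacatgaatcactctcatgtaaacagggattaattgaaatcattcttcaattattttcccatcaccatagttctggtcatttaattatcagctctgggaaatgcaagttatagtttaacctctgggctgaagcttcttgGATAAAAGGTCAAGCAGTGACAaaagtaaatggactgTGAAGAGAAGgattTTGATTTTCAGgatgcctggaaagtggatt
Over the 528 pairs that the 33 genes with a window can form, the longest shared run had a median of 8 bases, and 10 pairs shared at least 12.

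No P450 or conjugation enzyme gene differed from the wild-type pool past an adjusted p of 0.05 (limma, Benjamini-Hochberg over all 6191 genes), where 0.21% of all genes did (13 genes). The 44 means lay between -0.32 (Cyp7b1) and 0.24 (Akr7a5), and every 95% interval lay between -0.45 and 0.48. At an unadjusted p under 0.05 there were 12 of the 44, which is 27.3%, beside 16.8% of all genes. Of these 5 were higher (11.4%, beside 6.8% of all genes) and 7 lower (15.9%, beside 10% of all genes). The mean was positive for 31 of the 44 genes (70.5%) and for 48.2% of all genes, with medians of 0.04 and 0.00. The sign was the same in all 4 mice for 12 genes (27.3%), beside 25.7% of all genes, and the same in both orientations of every mouse for 3 (6.82%, beside 5.41% of all genes), namely Cyp7b1, Aldh3b2 and Ephx2. For Aldh3b2 in mouse 3, channel 2 was a single array at 0.0001. Ephx2 averaged -0.07, -0.11, -0.02 and -0.04 in mice 1 to 4 with knockout RNA in channel 1. With it in channel 2 the averages were -0.35, -0.32, -0.04 and -0.19. The plot of all 44 genes by mouse shows how small most ratios were next to the distance between mice.

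**Figure D1:**
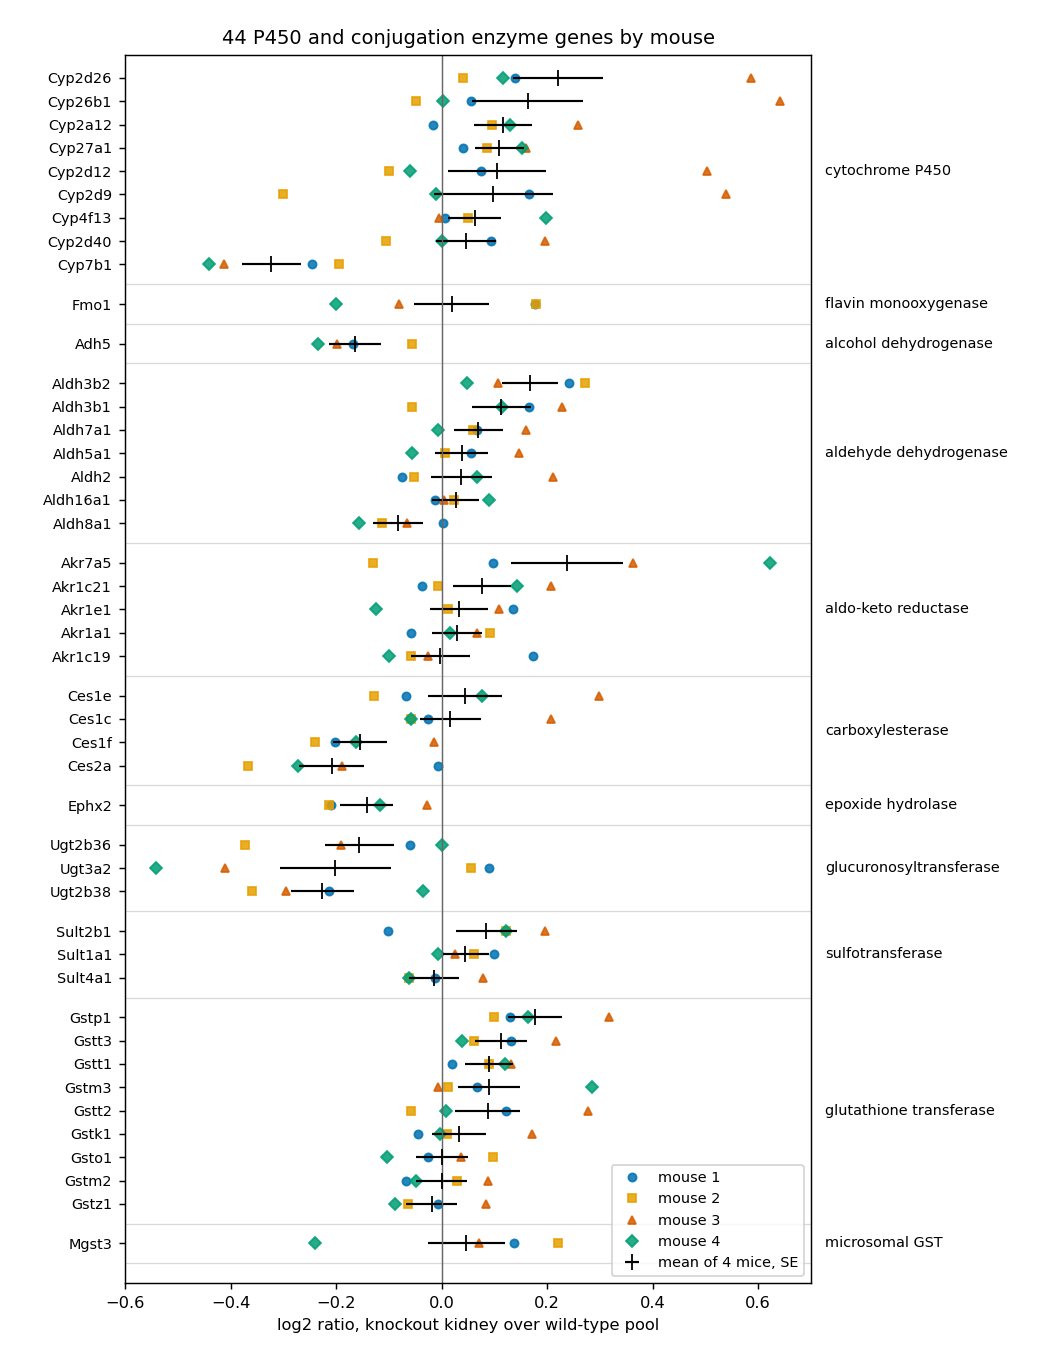
Log2 ratio of knockout kidney over the wild-type pool (x axis) for each of the 44 genes (y axis), grouped by enzyme family. Coloured symbols are the 4 mice, the black tick is their mean and the bar its moderated standard error. Cyp7b1 stands furthest left of 0 with all 4 mice below -0.19, and the symbols of mouse 3 lie furthest right for 25 of the 44 genes.

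The P450 gene with the smallest p was Cyp7b1, which hydroxylates oxysterols in the alternative route from cholesterol to bile acids. It stood at -0.25, -0.19, -0.41 and -0.44 in mice 1 to 4 (mean -0.32, SE 0.06, 95% interval -0.45 to -0.20, 1.25-fold lower, limma adjusted p = 0.098). All 4 mice were below 0, as were all 16 arrays, from -0.56 to -0.07. With the probes restricted to those with a value on every array, its adjusted p was 0.039 among fewer genes tested, and leaving out a mouse gave 0.10 to 0.38. Two-colour ratios of whole kidney cannot tell fewer cells of a type from less RNA per cell, here and for every gene below. Cyp27a1, the mitochondrial sterol hydroxylase that feeds the same route, stood at 0.04, 0.09, 0.16 and 0.15 (mean 0.11, SE 0.05, adjusted p = 0.28), above 0 in every mouse.

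The other 7 P450 genes all had positive means without passing the test. Cyp2d26 had the largest, 0.22 (SE 0.09, limma adjusted p = 0.26), followed by the retinoic acid hydroxylase Cyp26b1 at 0.16 and Cyp2a12, a steroid hydroxylase of mouse liver, at 0.12. Cyp2d12, Cyp2d9, Cyp4f13 and Cyp2d40 lay between 0.05 and 0.10. Cyp2a12 stood at -0.02, 0.10, 0.26 and 0.13 in mice 1 to 4, and Cyp4f13, of the fatty acid and leukotriene hydroxylase subfamily, at 0.01, 0.05, -0.004 and 0.20. The means of Cyp26b1 and of Cyp2d9, Cyp2d12 and Cyp2d26 rest mainly on mouse 3, as described further on. Without that mouse Cyp2d9 stood at -0.05 and Cyp2d12 at -0.03. With knockout RNA in channel 2, Cyp2d26 averaged 0.06, -0.11, 0.54 and -0.01 in mice 1 to 4. In channel 1 its averages were 0.22, 0.19, 0.63 and 0.24.

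Among the hydrolases 3 of 5 means were negative (Ces2a, Ces1f and Ephx2), as was that of the alcohol dehydrogenase Adh5, and none passed the test. Ces2a, a carboxylesterase that cleaves drug esters and acylglycerols, stood at -0.01, -0.37, -0.19 and -0.27 (mean -0.21, SE 0.06, limma adjusted p = 0.18). Ces1f, of the Ces1 cluster, stood at -0.20, -0.24, -0.01 and -0.16 (mean -0.16, adjusted p = 0.20). Both were below 0 in every mouse, with 1 mouse close to 0 in each case. The other measured Ces1 genes, Ces1c and Ces1e, had means of 0.02 and 0.04. Ephx2, the soluble epoxide hydrolase that opens epoxides of arachidonic acid, stood at -0.21, -0.21, -0.03 and -0.12 (mean -0.14, adjusted p = 0.22). Adh5, which oxidises the glutathione adduct of formaldehyde, stood at -0.17, -0.06, -0.20 and -0.24 (mean -0.16, SE 0.05, adjusted p = 0.18). All 4 mice were again below 0 for these last genes.

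Aldehyde dehydrogenases and aldo-keto reductases had mostly positive means, 6 of 7 and 4 of 5, with none past the test. Aldh3b2, which oxidises lipid aldehydes, stood at 0.24, 0.27, 0.11 and 0.05 (mean 0.17, SE 0.05, limma adjusted p = 0.19), on 10 arrays. Its relative Aldh3b1 had a mean of 0.11, Aldh7a1 of lysine breakdown 0.07, and Aldh5a1, Aldh2 and Aldh16a1 lay between 0.03 and 0.04. Aldh8a1, which acts in tryptophan breakdown, was the 1 negative gene of the family at -0.08 (adjusted p = 0.39). Akr7a5, a reductase of aflatoxin aldehyde and succinic semialdehyde, had the highest mean of all 44 genes at 0.24, but its mice stood at 0.10, -0.13, 0.36 and 0.62 (SE 0.11, adjusted p = 0.31). In mouse 4 its arrays 1, 2 and 3 were split at 0.89, 0.86 and -0.12, and array 4 had no value. Akr1c21, a hydroxysteroid dehydrogenase of mouse kidney, stood at -0.04, -0.01, 0.21 and 0.14 (mean 0.08). Akr1e1, Akr1a1 and Akr1c19 had means of 0.03, 0.03 and 0.00. Fmo1, the main flavin monooxygenase of mouse kidney, stood at 0.18, 0.18, -0.08 and -0.20 in mice 1 to 4 (mean 0.02). Its orientations had opposite signs in mouse 3, at 0.25 with knockout RNA in channel 1 and -0.41 in channel 2.

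The 3 glucuronosyltransferase genes all had negative means without passing the test. Ugt2b38 stood at -0.21, -0.36, -0.30 and -0.04 (mean -0.23, SE 0.06, 95% interval -0.36 to -0.09, limma adjusted p = 0.16). Ugt2b36, whose window is printed beside it, stood at -0.06, -0.37, -0.19 and 0.00 (mean -0.16, SE 0.07, adjusted p = 0.28). Mouse 2 was the lowest and mouse 4 the highest for both. The Ugt2b genes resemble each other, so a spotted cDNA may take up transcripts of several of them, and the same holds for the Cyp2d, Ces1, Gstm and Akr1c genes. Ugt3a2, of a subfamily that in humans uses sugars other than glucuronic acid, averaged -0.20 with the mice divided (adjusted p = 0.36).

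Glutathione transferases had 7 positive means of 9, from -0.02 (Gstz1, of tyrosine breakdown) to 0.18 (Gstp1). Gstp1, the pi class enzyme, stood at 0.13, 0.10, 0.32 and 0.16 (mean 0.18, SE 0.05, 95% interval 0.06 to 0.29, limma adjusted p = 0.17), above 0 in every mouse. Its arrays with knockout RNA in channel 2 were lower, averaging -0.02, -0.06, 0.32 and 0.03 in mice 1 to 4, so most of the ratio came from the other orientation outside mouse 3. The 3 theta class genes, neighbours on chromosome 10, had similar means of 0.11 (Gstt3), 0.09 (Gstt1) and 0.09 (Gstt2), with Gstt3 at 0.13, 0.06, 0.22 and 0.04. Gstm3 had a mean of 0.09, which rested on mouse 4 at 0.29. Gstk1, Gsto1 and Gstm2 lay between 0.00 and 0.03. Mgst3, a microsomal enzyme that conjugates glutathione to leukotrienes, stood at 0.14, 0.22, 0.07 and -0.24 (mean 0.05). The sulfotransferases were close to 0, with Sult2b1, which sulfates sterols, at 0.08, the phenol enzyme Sult1a1 at 0.04 and the brain form Sult4a1 at -0.02. The 2 probes of Sult4a1 differed in sign, at -0.07 and 0.04, with mouse 4 at -0.26 and 0.14.

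**Figure D2:**
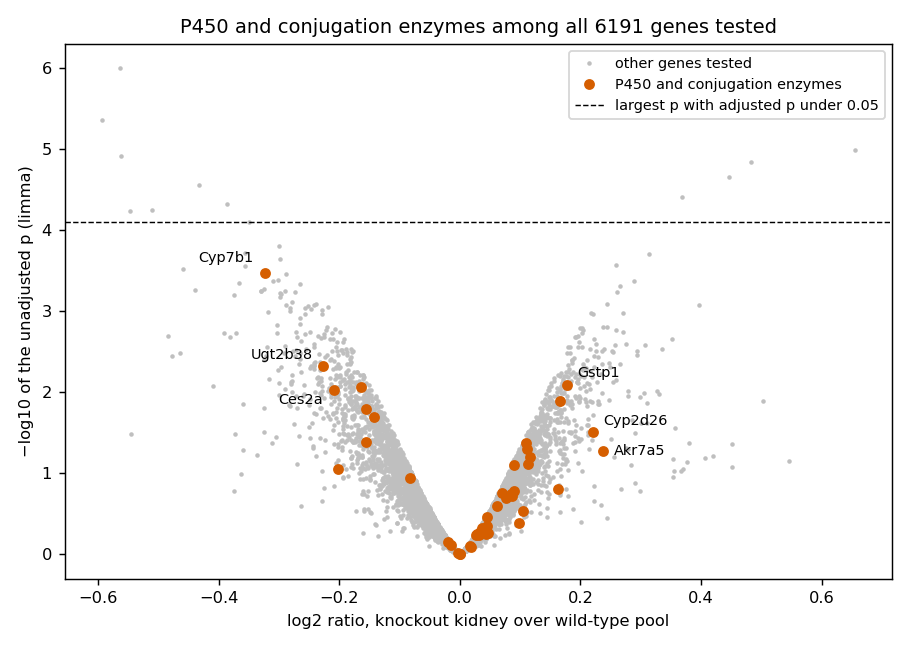
Log2 ratio of knockout kidney over the wild-type pool (x axis) against −log10 of the unadjusted p of the limma test against 0 (y axis) for all 6191 genes. Orange points are the P450 and conjugation enzymes, grey points all other genes, the dashed line is the largest p whose adjusted p is under 0.05, and 2 genes beyond 0.9 in size are not drawn. No orange point reaches the line, and Cyp7b1 at -0.32 comes closest.

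Orientation differences were as large as many of these values. The difference between orientations, channel 1 minus channel 2, was positive for 31 of the 44 genes (70.5%) and for 56.1% of all genes. No gene of the 44, and none of all 6191, passed an adjusted p of 0.05 for it (limma), while 14 of the 44 and 1208 of all genes had an unadjusted p under 0.05. Averaging the orientations cancels this part in each mouse. It was 0.30 for Fmo1 and 0.28 for Cyp4f13.

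The mice themselves can be compared with each other without the pool's own deviation, since all were read against the same RNA. The test asks whether the 4 animals differed beyond the scatter of their arrays, so its p describes these animals and not the genotype. Among the 44 genes, 5 differed between the knockout mice at an adjusted p under 0.05 (limma, moderated F with a dye term), which is 11.4%, beside 2.54% of all genes (157). They were Cyp2d9, Cyp26b1, Ugt3a2, Cyp2d12 and Cyp2d26. The median SD between mice was 0.12 for the 44 genes and 0.10 for all genes. Unadjusted, 11 of the 44 and 845 of all genes had p under 0.05.

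Cyp2d9, which hydroxylates testosterone in male mice, had the widest spread. It stood at 0.17, -0.30, 0.54 and -0.01 in mice 1 to 4 (SD 0.35, adjusted p = 0.0022, limma). The 4 arrays of mouse 3 lay between 0.46 and 0.63, above all 12 other arrays, which lay between -0.40 and 0.31. The 4 arrays of mouse 2 lay between -0.40 and -0.17. Leaving out mouse 3 raised the adjusted p to 0.23 and leaving out mouse 2 to 0.12. Leaving out mouse 1 or mouse 4 kept it under 0.05.

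Cyp26b1, which breaks down retinoic acid, stood out in mouse 3 alone, at 0.06, -0.05, 0.64 and 0.00 (adjusted p = 0.0092, limma). Its 4 arrays of mouse 3 lay between 0.46 and 1.01 and the other 12 between -0.30 and 0.26, with no overlap. Without mouse 3 the adjusted p was 0.90, and without any 1 of the other mice it stayed at 0.03 or below.

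Cyp2d12 stood at 0.07, -0.10, 0.50 and -0.06 (adjusted p = 0.017, limma), with arrays of mouse 3 from 0.31 to 0.67 and the others from -0.39 to 0.39, so that they overlapped. Cyp2d26 stood at 0.14, 0.04, 0.59 and 0.12 (adjusted p = 0.042), with arrays of mouse 3 from 0.53 to 0.67 just above the 12 others at -0.23 to 0.52. Its 2 probes gave 0.61 and 0.56 in mouse 3. Cyp2d40 stood at 0.09, -0.11, 0.20 and 0.00 and did not pass (adjusted p = 0.66). By their means, all 4 Cyp2d genes ranked the mice in one order, mouse 3 highest, then mouse 1, mouse 4 and mouse 2. The order below mouse 3 is less sure, since the arrays of mouse 4 were split. Arrays 1 to 4 of mouse 4 gave 0.12, 0.31, -0.36 and -0.12 for Cyp2d9. For Cyp2d26 they gave 0.21, 0.52, -0.23 and -0.03. Cyp2d40 was read on 2 arrays each in mice 1 and 2. The 4 genes lie close together on chromosome 15, where they are numbers 474, 476, 478 and 479 in the order of protein-coding genes for Cyp2d9, Cyp2d12, Cyp2d40 and Cyp2d26. Without mouse 3 the adjusted p was 0.78 for Cyp2d12 and 0.89 for Cyp2d26.

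Ugt3a2 divided the mice differently. It stood at 0.09, 0.06, -0.41 and -0.54 (adjusted p = 0.0093, limma), with mice 3 and 4 below mice 1 and 2. The arrays of mouse 4 lay between -0.86 and -0.30 and those of mouse 3 between -0.75 and -0.06, while mouse 1 lay between -0.04 and 0.31 and mouse 2 between -0.06 and 0.18. It was the 1 gene of the 5 to pass without mouse 3, at an adjusted p of 0.03. It did not pass without mouse 1 (0.07) or without mouse 4 (0.08). By orientation, Ugt3a2 averaged -0.14 in channel 1 and -0.68 in channel 2 in mouse 3, and -0.40 and -0.69 in mouse 4. In mouse 1 these averages were 0.14 and 0.04, and in mouse 2 they were 0.06 and 0.05.

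**Figure D3:**
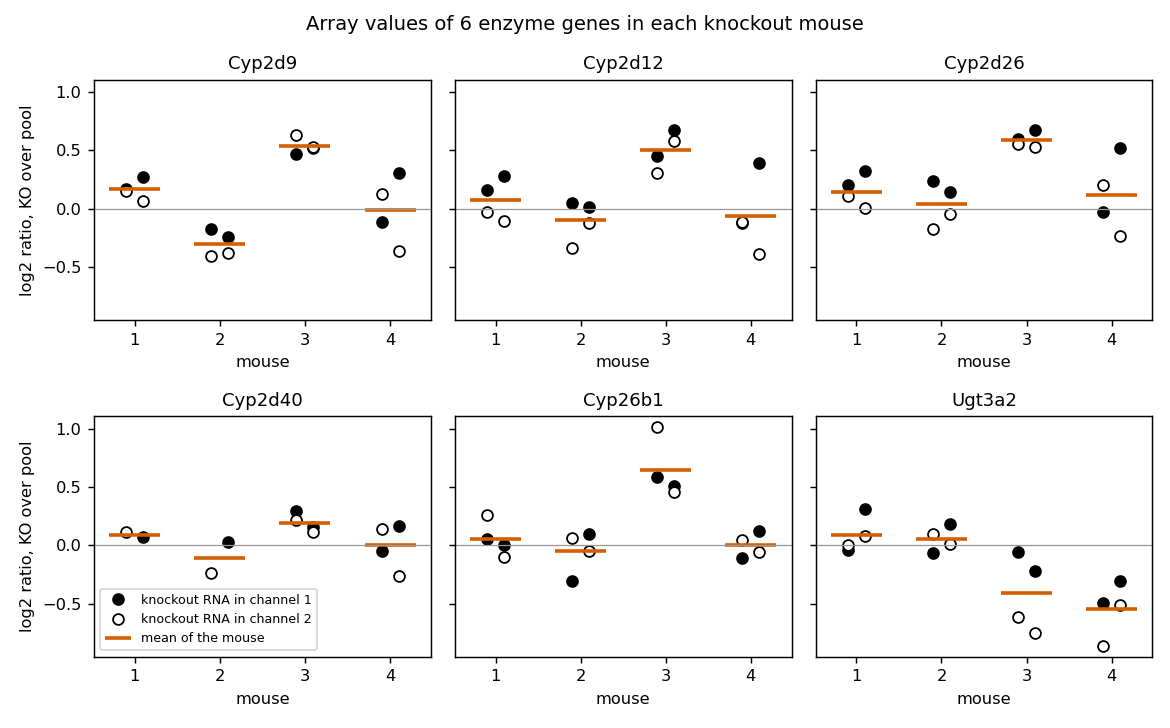
Log2 ratio of knockout kidney over the wild-type pool on each array (y axis) in each of the 4 mice (x axis), for the 4 Cyp2d genes, Cyp26b1 and Ugt3a2. Filled circles are arrays with knockout RNA in channel 1, open circles those with it in channel 2, and the orange line is the mean of the mouse. Mouse 3 is highest in the first 5 panels, from 0.20 for Cyp2d40 to 0.64 for Cyp26b1, while Ugt3a2 is at -0.41 and -0.54 in mice 3 and 4.

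Mouse 3 was often highest beyond these genes as well. It held the highest value of the 4 mice for 25 of the 44 genes (56.8%), beside 27.8% of all genes, including 7 of 9 P450 genes, 7 of 9 glutathione transferases, 3 of 4 carboxylesterases and 4 of 7 aldehyde dehydrogenases. The median of the 44 genes was 0.01, 0.00, 0.11 and 0.00 in mice 1 to 4, against medians of all genes within 0.01 of 0 in every mouse. On single arrays the median of the 44 genes lay between 0.07 and 0.18 in mouse 3 and between -0.09 and 0.09 in the others. Not every family followed this. Mouse 3 was highest for none of the 3 glucuronosyltransferases, for 1 of 5 aldo-keto reductases and for none of the single Adh, Fmo and Mgst genes. It was highest for 2 of 3 sulfotransferases and for Ephx2. Outside the 5 genes past the test between mice, the widest spreads belonged to Akr7a5 (SD 0.33, adjusted p = 0.15, limma), Mgst3 (0.20), Fmo1 (0.19), Ces1e (0.19) and Ugt2b36 (0.17). The SD of Akr7a5 was the second widest of all 44, after Cyp2d9. These 5 did not pass the test between mice.

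**Figure D4:**
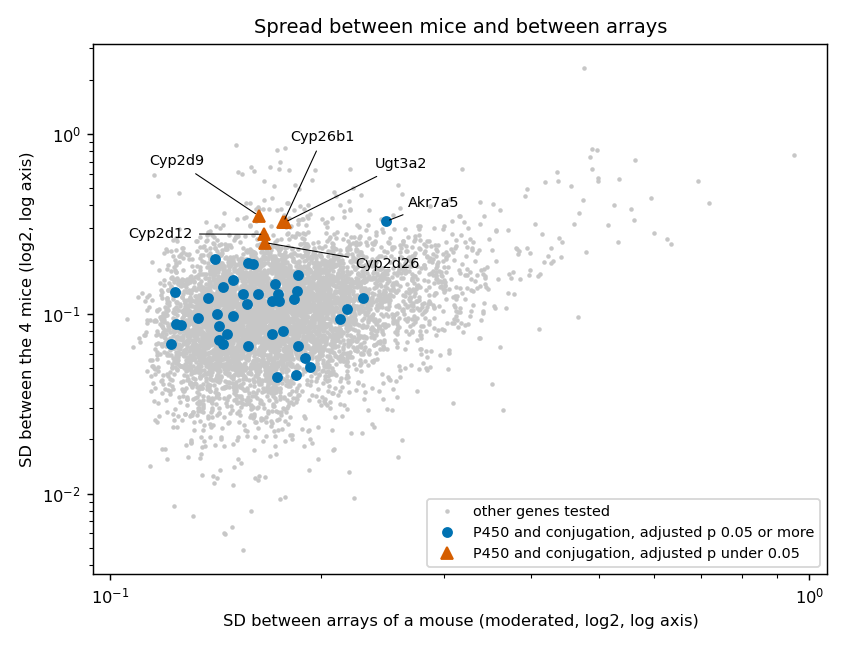
Moderated SD between the arrays of a mouse (x axis, log2 ratio, log axis) against the SD between the 4 mice (y axis, log2 ratio, log axis) for all 6191 genes. Triangles are the 5 P450 and conjugation enzyme genes with an adjusted p under 0.05 in the test between mice, blue circles the others of the 44, grey points all other genes. Cyp2d9 has the highest triangle at 0.35, and Akr7a5 has a like SD between mice of 0.33 with a wider scatter of arrays.

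Markers of other tissues were followed in the same mice, and their part in these results was not tested. Svs5, which the seminal vesicle secretes, was the 1 gene measured of 8 male tract markers. It stood at 0.21, -0.09, 4.94 and 1.09 in mice 1 to 4 and differed between them (adjusted p = 2.2e-05, limma). Of 15 liver markers 9 were measured, 5 positive and 4 negative, with list medians of -0.06, -0.08, 0.11 and 0.04 in mice 1 to 4. In mouse 3 that list ranged from -1.58 to 0.26, and its lowest gene, Serpina1b, stood at -0.25, -0.31, -1.58 and -0.04 and differed between mice (adjusted p = 2.1e-06, limma). Among the other markers the adipose gene Fabp4 (-0.11, 0.34, 0.02 and -0.47) and the loop gene Umod (-0.14, -0.33, 0.19 and 0.27) also differed between mice, with adjusted p of 0.011 and 0.012 (limma). The proximal tubule transporter Slc22a8 was the 1 marker past the test against the pool, higher at 0.43, 0.34, 0.57 and 0.59 (mean 0.48, SE 0.05, limma adjusted p = 0.015). Of 10 adrenal markers 4 were measured, with medians of 0.05, -0.08, 0.06 and 0.04. The 10 measured proximal tubule markers had medians of 0.08, 0.02, 0.08 and -0.01, and the 6 collecting duct markers 0.11, 0.04, 0.19 and 0.15. Medians were -0.11, -0.11, -0.03 and -0.17 for 3 of 8 adipose markers and -0.13, 0.05, 0.13 and 0.02 for 3 of 8 leukocyte markers. For 2 of 5 erythroid markers they were 0.06, 0.03, 0.09 and 0.02, and for the 2 loop and distal tubule markers -0.14, -0.21, -0.10 and 0.05.

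Proteins that serve the P450s gave a mixed picture. Of 22 genes for electron donors, haem synthesis and P450 partners 14 were measured, 8 positive and 6 negative, with a median of 0.02 and none past the test against the pool. Alad, of haem synthesis, stood at 0.28, 0.24, 0.29 and 0.23 (mean 0.26, SE 0.04, limma adjusted p = 0.089), the steadiest of the list, and Pgrmc2, a haem carrier, at a mean of -0.13. Cyb5a, the cytochrome b5 that passes electrons to P450s, stood at -0.26, -0.18, -0.28 and -0.47 (mean -0.30, adjusted p = 0.10). Alas1, the first enzyme of haem synthesis, differed between mice at 0.41, -0.08, -0.46 and -0.29 (adjusted p = 0.0033).

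Of 33 regulators of these enzymes, nearly all transcription factors, 20 were measured, 11 positive and 9 negative, with a median of 0.02. None passed the test against the pool, and 5 of the 20 had an unadjusted p under 0.05, all with positive means, beside 16.8% of all genes in either direction and 6.8% higher. They were the PAR-bZIP factor Hlf (0.29, limma adjusted p = 0.15), the vitamin D receptor Vdr (0.21), the fatty acid receptor Ppara (0.17), the bile acid receptor Nr1h4 (0.17) and its target Nr0b2 (0.18). Mouse 3 was highest for Hlf at 0.57, beside 0.28, 0.17 and 0.15 in mice 1, 2 and 4. Ppard, a fatty acid receptor, differed between mice at -0.38, 0.19, -0.34 and 0.14 (adjusted p = 0.013).

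Genes that supply the conjugation reactions had mostly negative ratios. Of 15 genes for cosubstrates 7 were measured, 2 positive and 5 negative, with a median of -0.08 and none past the test. Gclc, the catalytic subunit for glutathione synthesis, stood at -0.37, -0.32, -0.37 and -0.14 (mean -0.30, SE 0.05, limma adjusted p = 0.10). Its difference between orientations was 0.33 (limma adjusted p = 0.16), and its sign was not the same in both orientations of every mouse. Ugdh, which makes UDP-glucuronic acid, had a mean of -0.17, with -0.49 in mouse 3, and Slc35b2, which carries the sulfate donor into the Golgi, had 0.15. Among targets of the stress factor NRF2, 10 of 20 were measured, 7 positive and 3 negative, with a median of 0.03, Cat at 0.17 and Pgd at 0.15. The list shares Gclc with the cosubstrate list.

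Of 30 genes for other conjugation and reduction reactions 13 were measured, 3 positive and 10 negative, with a median of -0.04. The sulfur transferase Tst, which detoxifies cyanide, was higher in knockout kidney at 0.37, 0.34, 0.50 and 0.57 in mice 1 to 4 (mean 0.45, SE 0.05, 1.36-fold, limma adjusted p = 0.020). Dcxr, which reduces dicarbonyls and xylulose, had a mean of 0.29 (adjusted p = 0.15) and differed between mice at 0.10, 0.15, 0.52 and 0.40 (adjusted p = 0.047). Cbr4, a carbonyl reductase, had a mean of -0.14. Of 11 efflux transporters only 2 were measured, the exporters Abcc5 at 0.12 and Abcc1 at -0.03. Of the genes that the choice by symbol left out, 8 of 12 were measured, with a median of -0.10, none past the test against the pool and 5 past the test between mice (Cyp4a14, Cyp51, Gsta2, Aldh1a7 and Aldh1a1).

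Motifs of known regulators were counted in the promoter windows, on both strands, each motif on its own even where matches overlap. Of the 44 genes 33 had a window, 37 windows in all. The core of the antioxidant response element (TGACNNNGC) was found in 1 window, that of Akr1c19, and in 12.4% of 32841 windows of all genes. The xenobiotic response element core (GCGTG) was in 6 windows, of Adh5, Akr7a5, Gstp1, Mgst3 and Sult2b1, which is 16.2% beside 32.4% of all. The D-box (TTANGTAA), read by Hlf and its relatives, was in the windows of Ces1c, Ces1e and Sult1a1, 8.11% beside 2.32% of all. The HNF1 hexamer (GTTAAT) was in those of Akr1c21, Cyp2d26 and Sult1a1, 8.11% beside 7.10% of all. A match describes letters in this window and no more.

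The 28 genes that matched by symbol but lacked a value in both orientations of every mouse were on 1 to 15 arrays, 20 of them with some value in every mouse. They include Cyp1b1, a P450 of steroids and aromatic hydrocarbons, which was on 12 arrays at 0.14, -0.04, 0.22 and 0.37 in mice 1 to 4, and the microsomal epoxide hydrolase Ephx1, on 8 arrays in 3 mice. Akr1c18, a progesterone-reducing enzyme chosen here after its values were seen, was on 7 arrays at -0.05, -0.51, -0.67 and -0.42. The steroid-synthesis genes Cyp11a1, Cyp17a1 and Cyp21a1 were on 8, 7 and 7 arrays. These genes entered no test. A further 7 probes name a gene of these families among several genes and were not used. Of the 44 genes themselves, 29 had a value on all 16 arrays and the fewest was 10.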

How the data were processed

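RNA of 4 knockout kidneys was compared with 1 pool of 5 wild-type kidneys on 16 arrays. Per the labels' protocols, the authors labelled RNA indirectly with Cy3 or Cy5, scanned on a GenePix 4000A, subtracted background from mean intensities in GenePix Pro 3.0 and set the median ratio of each array to 1. The deposited values are log2 ratios. The base was read from the values, since 46.5% of 720 distances between repeated values matched log2 of fractions of whole numbers up to 20, within 2e-06, and 0 matched natural or decimal logarithms. Numerator and dye per channel, and the rule behind blank cells, are not given in the sources used here. Depth does not apply to arrays, whose number limits the precision.

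Each array was centred on its median and turned to knockout over pool. Arrays were averaged within orientation, then over orientations, and probes with 1 gene symbol over genes (11723 of 20205 probes have 1 symbol, 806 several and 7676 none). limma 3.58.1 in R 4.3.3 tested the mean of 4 mice against 0 (eBayes) and, over arrays with a dye term, differences between mice (moderated F), with Benjamini-Hochberg adjustment over 6191 genes and a threshold of 0.05. Both tests were checked on simulated data, with planted differences larger than any seen in these enzyme genes and arrays without a shared orientation effect. That check does not show how the tests do with differences as small as those reported here. Genes were named by a rule: all past a threshold, up to 3 per family with the smallest p, the 10 with the widest spread between mice, and the ends of each family's range, with the rest given for completeness. Marker and pathway lists were counted, not tested. Genes, lists and rules were chosen with earlier results of these data known. Alternatives left out mice, arrays or orientations, or changed centring, scaling, filters, probe summary and test unit.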

Additional observations from a re-analysis of the deposited data

Results flagged for a closer look

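Single mice stood apart from the other 3 in 2 of the 44 genes, by the share of the range that separates the most distant mouse from its nearest neighbour. Cyp26b1 was 0.64 in mouse 3, and that gap took 0.85 of the range. Ces1c, a carboxylesterase secreted into mouse plasma, was 0.21 in mouse 3, beside -0.03, -0.06 and -0.06 in mice 1, 2 and 4, with a gap of 0.87 of the range. Chance marks about 1 in 20 groups of 4 in this way, which over 44 genes is about the number found. Ces1c did not pass the test between mice, and Cyp26b1 did.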

How the results depend on the processing

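With only probes that have a value on all arrays, 1 gene of 29 tested passed against the pool (Cyp7b1), and with arrays as measurements and the mouse as a random block 8 did (Adh5, Ces1f, Ces2a, Cyp2d26, Cyp7b1, Ephx2, Gstp1 and Ugt2b38), beside 467 of all genes. That block correlation was 0.014, so the test counts arrays almost as animals. In the other alternatives for that test, the count stayed at 0. The 5 genes that differed between mice became 3 without a dye term, 1 on arrays 1 and 2 (Akr7a5), 0 on arrays 3 and 4, 3 without array 3 of mouse 3 and array 1 of mouse 4 (chosen after seeing the data), and 1 to 4 with each mouse left out. Scaling the arrays to one spread gave 4, with Fmo1 in place of Cyp26b1 and Cyp2d26. Over all genes the alternatives called 1 to 467 against the pool, beside 13, and 22 to 170 between mice, beside 157. The causes were not tested, except that halved array sets hold fewer measurements.

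Single genes were followed through the alternatives only for the 30 named by the rule. Some of their means changed sign, none of them past a threshold. The values below are therefore no full list for the 44 genes. Cyp4f13, outside the 30, averaged -0.01, 0.02, -0.33 and -0.001 in mice 1 to 4 with knockout RNA in channel 2. Not all were near 0, since Cyp2d12, Cyp2d9 and Gstt1 had reported means of 0.105, 0.098 and 0.090. The median size of the mean was 0.086 over the 44 genes. Akr1c19 was 0.0021 without centring, 0.0055 with arrays scaled, 0.014 with the random block and 0.0031 without the 2 arrays. With knockout RNA in channel 1 alone Gstz1 was 0.0053. In channel 2 alone Akr1a1 was -0.012, Akr1c19 0.025, Cyp2d12 -0.026, Fmo1 -0.13, Gstt1 -0.022, Mgst3 -0.068 and Sult4a1 0.085. On arrays 1 and 2 Gstz1 was 0.053 and Sult2b1 -0.0074, and on arrays 3 and 4 Fmo1 was -0.0077 and Sult4a1 0.077. Gstz1 was 0.029 with probes on all arrays or its fullest probe. Leaving out each mouse gave ranges of -0.062 to 0.030 for Akr1c19, -0.041 to 0.10 for Ces1e, -0.028 to 0.17 for Cyp2d12, -0.049 to 0.23 for Cyp2d9, -0.035 to 0.092 for Fmo1, -0.053 to 0.0043 for Gstz1, -0.011 to 0.14 for Mgst3 and -0.046 to 0.00068 for Sult4a1. No paired analysis was possible because the wild-type side is 1 pool.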
